A study of Mus musculus with 12 samples.

Results

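The 2-oxoglutarate dioxygenases are enzymes that use iron, oxygen and 2-oxoglutarate to hydroxylate proteins or to remove methyl groups from histones, DNA and RNA, releasing succinate as a product. Succinate competes with 2-oxoglutarate at their active sites, so loss of succinate dehydrogenase, of which SDHC is a membrane subunit, is known to inhibit them as a class. In fibroblasts the class is best known for the HIF prolyl hydroxylases, which mark hypoxia-inducible factors for destruction when oxygen is present, for the prolyl and lysyl hydroxylases that mature collagen, and for the JmjC histone demethylases. The DNA methylation of the genes that encode these enzymes, leaving out the TET genes, was examined in Sdhc-deficient and control cells. The 37 genes were taken as a class and not for their methylation, though with earlier results of these data known. Jarid2, a JmjC protein without demethylase activity, was counted with the histone demethylase genes. The promoter was taken as the 1500 bp before and the 500 bp after the outermost RefSeq start of each gene (mm10, GRCm38.p6) and was measured where at least 3 CpG cytosines in it were listed in all 12 libraries. This was so for 29 of the 37 genes, namely 10 of 13 histone demethylase genes, 10 of 12 prolyl or lysyl hydroxylase genes, 5 of 7 AlkB genes and 4 of 5 others, among 13142 autosomal promoters measured in all.

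The data were 12 reduced representation bisulfite sequencing (RRBS) libraries from immortalized mouse embryonic fibroblasts (iMEFs), 1 per line and day. The experimental line was R26M2rtTA/+;TetOcre;Sdhcfl/fl and the control line R26M2rtTA/+;TetOcre;Sdhcfl/wt. Both lines therefore carried the doxycycline-responsive rtTA and Cre transgenes and both received doxycycline at 1 µg/mL, with samples on day 0 and on days 5, 9, 12, 16 and 20. Cre removes Sdhc exon 4 from both alleles of the experimental line and from 1 allele of the control line, which keeps a wild-type allele. The lines were made from mouse embryos and immortalized with SV40 virus. Each genotype was 1 line, so the genotype, the line and any clonal difference between lines cannot be told apart, and the days of a line are repeated samples of it and not separate cultures. The removal of exon 4 was not examined here. Methylation is given as a beta value, the share of reads at a cytosine called methylated, from 0 to 1, and a promoter value is the mean over its cytosines. The deposited values hold no read counts, so the depth behind a value is unknown, and a change in the share of cells that carry a methylated copy cannot be told apart from a change in the copies within a cell. The libraries listed between 932307 cytosines (control day 12) and 1716381 cytosines (control day 5). Of 9 fibroblast marker genes, 5 promoters could be measured. Vim (vimentin), Fn1 (fibronectin) and Pdgfrb were unmethylated in both lines, while Col1a2, a type I collagen chain, stood at 0.891 and 0.867 and Pdgfra at 0.728 and 0.656 in the experimental and control series. Promoter methylation does not measure expression, so these values are no full check of the labelled cell type. Promoters of the epithelial gene Cdh1 (0.346 and 0.335) and the pluripotency gene Pou5f1 (0.535 and 0.691) were partly methylated.

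The promoters of the dioxygenase genes were, for the most part, unmethylated in both lines and on all days. In 21 of the 29 (72.4%) the value stayed under 0.1 in all 12 libraries, against 54.4% of all promoters, and the median of the members' means over 12 libraries was 0.0134 against 0.0251. The low level was not shared by the rest of the class. Of 15 further 2-oxoglutarate dioxygenase genes measured, the TET genes included, 7 (46.7%) stayed under 0.1 in all 12 libraries, with a median of 0.0248. The 8 others were Kdm2a, Kdm6b, Kdm4b and Jarid2 among the histone demethylase genes, P4htm among the hydroxylase genes, Alkbh2 and Alkbh3 among the AlkB genes, and Phyh. The median difference between the experimental series (days 5 to 20, n = 5) and the control series (days 0 to 20, n = 6) was 0.00252 over the members and 0.00251 over all promoters, and 62.1% of members and 63.3% of all promoters were higher in the experimental series. A difference above 0.1 in either direction was seen in 2 members (6.90%) and in 9.33% of all promoters.

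**Figure D1:**
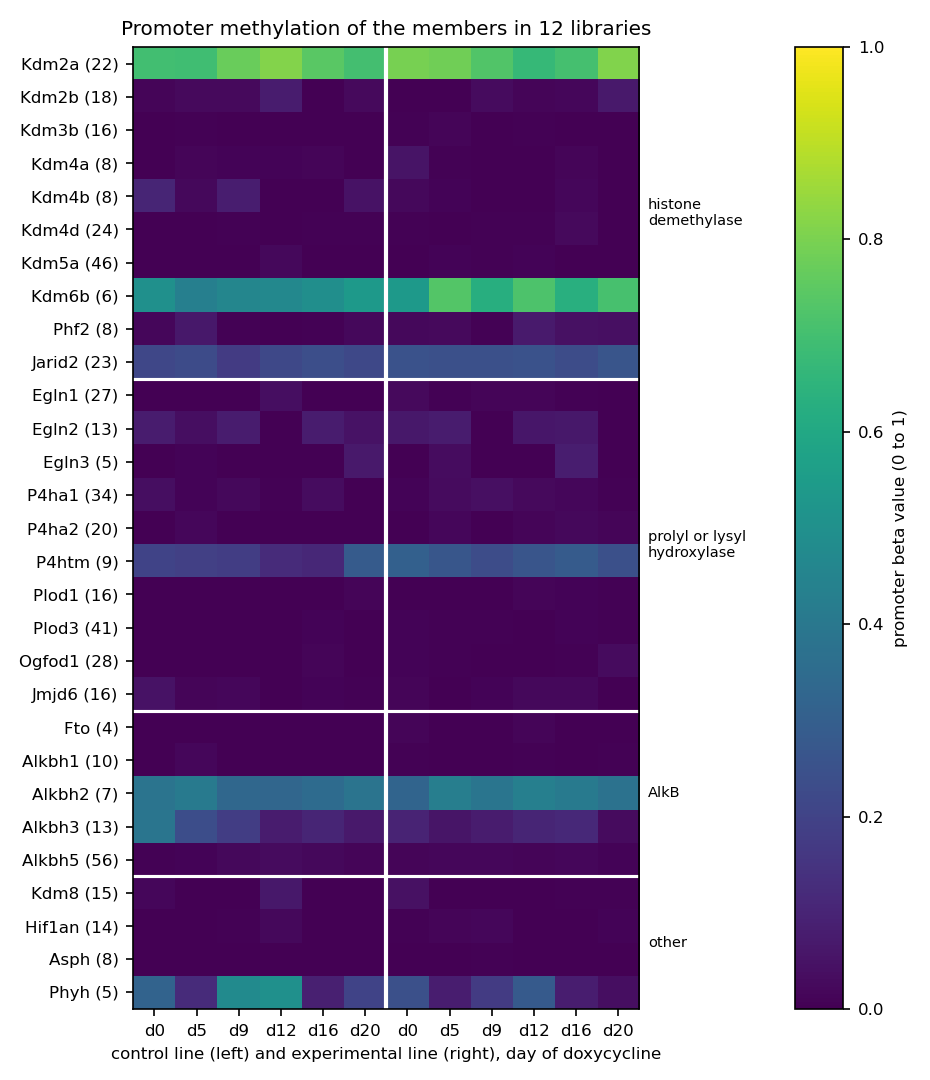
Promoter beta values of the 29 measured dioxygenase genes (rows, with the number of cytosines in brackets) in the 12 libraries (columns, control line on the left and experimental line on the right, by day of doxycycline). Most rows are dark, at values under 0.1 in every library, while Kdm2a and Kdm6b, Alkbh2, Jarid2 and P4htm are partly or largely methylated in both lines.

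The 520 cytosines behind these values showed where in the promoters methylation lay. Of the 478 within 500 bp of the gene start, 92.5% had a mean under 0.1, and of the 42 that lay farther upstream, 52.4% did. Over all 525 cytosines in member promoters, those of members with too few cytosines included, the value was 0 in all 12 libraries in 248. Of the 18 within 500 bp that had a mean above 0.5, 15 belonged to Kdm2a.

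**Figure D2:**
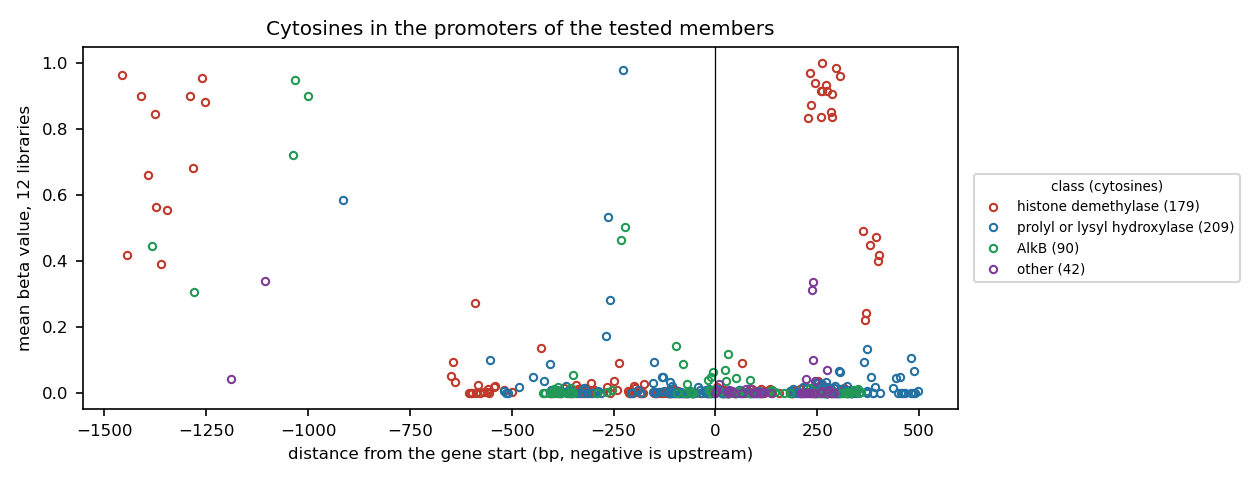
Mean beta value over 12 libraries (vertical axis, 0 to 1) of each of the 520 cytosines in the measured promoters against its distance from the gene start in bp (horizontal axis), coloured by class. Most points within 500 bp of the start lie near 0, apart from a group of Kdm2a cytosines 227 to 401 bp into the gene, while 14 of the 42 points farther upstream lie above 0.5.

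The sequence at the unmethylated starts is shown for Egln1 and P4ha1, because their windows hold the core letters of a hypoxia response element around a CpG that was measured. Egln1 encodes PHD2, the main HIF prolyl hydroxylase, and P4ha1 the catalytic subunit of collagen prolyl 4-hydroxylase. Both are known to be induced by hypoxia-inducible factors. The windows run from 250 bases before to 50 after a RefSeq start (GRCm38.p6), at chr8:124949205-124949504 on the minus strand for Egln1 and at chr10:59323046-59323345 on the plus strand for P4ha1, and capitals mark ACGTG on either strand.
Egln1: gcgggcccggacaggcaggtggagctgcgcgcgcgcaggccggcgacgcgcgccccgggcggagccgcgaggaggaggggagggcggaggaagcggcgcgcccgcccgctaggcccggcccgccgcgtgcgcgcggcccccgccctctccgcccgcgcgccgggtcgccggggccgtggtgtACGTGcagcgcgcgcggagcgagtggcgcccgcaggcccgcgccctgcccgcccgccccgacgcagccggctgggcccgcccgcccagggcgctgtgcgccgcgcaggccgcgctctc
P4ha1: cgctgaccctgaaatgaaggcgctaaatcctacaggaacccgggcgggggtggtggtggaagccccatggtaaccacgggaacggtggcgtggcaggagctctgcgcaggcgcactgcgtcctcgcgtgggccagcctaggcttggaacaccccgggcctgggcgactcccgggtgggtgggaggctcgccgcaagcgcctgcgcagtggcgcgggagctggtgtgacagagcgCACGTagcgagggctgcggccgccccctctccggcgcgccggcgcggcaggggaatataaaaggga
The cytosine of this motif that was listed, 67 bp before the start of the window's transcript in Egln1 and 13 bp before it in P4ha1, had a beta value of 0 in all 12 libraries. Over the windows of 30 members that could be matched to the RefSeq promoter table, ACGTG or GCGTG, read on both strands, occurred in 23 of 38 windows (18 genes), while 43.8% of all 32851 windows held either motif. ACGTG is also part of the E-box CACGTG. In these motifs 13 cytosines of 9 member genes were listed in all 12 libraries, 12 of them stayed under 0.1 in every library, and the highest value was 0.103, at Alkbh2. A match of these letters is a description of the sequence and not evidence that a factor binds there.

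The comparison of the experimental series with the control series asks whether the promoters of the dioxygenase genes were methylated differently in the line induced to lose Sdhc. It was made over all 13142 promoters with limma, after beta values had been put on the M-value scale, log2((beta + 0.01)/(1 − beta + 0.01)), and a promoter was called at a Benjamini-Hochberg adjusted p below 0.05. Across all promoters 2.57% were called, 1.8% higher and 0.769% lower in the experimental series, and among the 29 members 1 was called (3.448%), Kdm6b, which was higher in the experimental series. Before adjustment, 3 members had a p below 0.05 (10.34%, against 18.1% of all promoters), and Kdm6b, P4htm and P4ha2 were each higher in the experimental series. None was lower at that level.

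**Figure D3:**
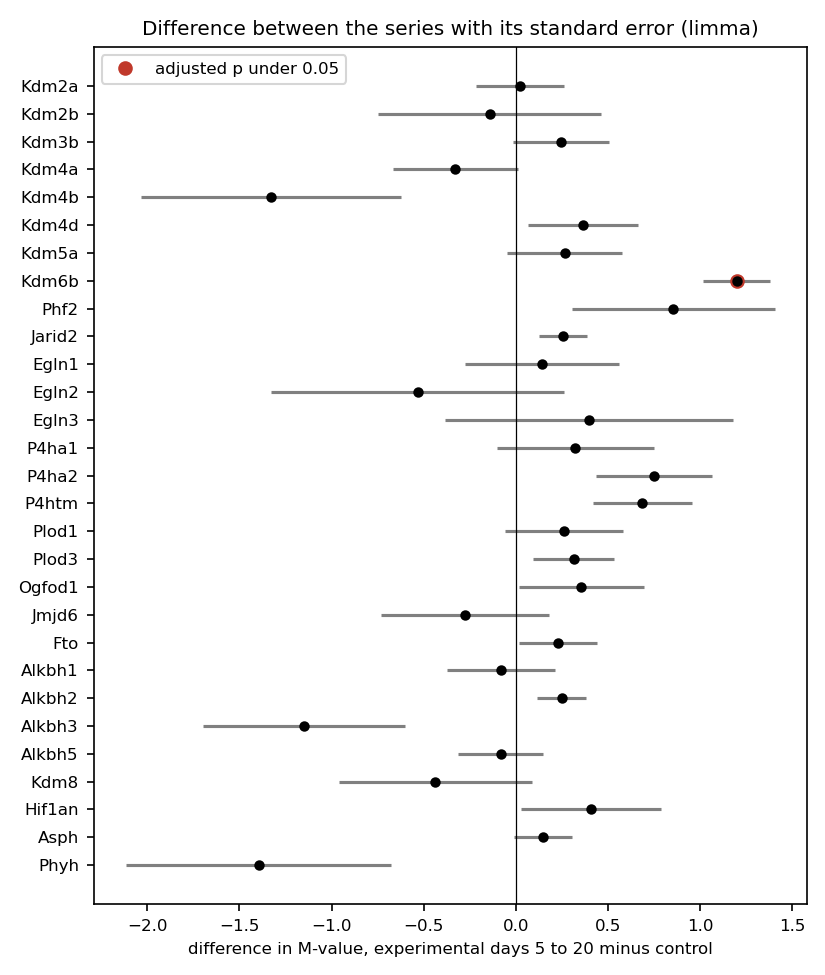
Difference in M-value between the experimental series (days 5 to 20, n = 5) and the control series (n = 6) for each measured member (points), with the standard error from limma (bars). Kdm6b, at 1.20 ± 0.181 (SE), is the member past the adjusted threshold, shown in red, and the members with the lowest differences, Phyh, Kdm4b and Alkbh3, have standard errors of 0.551 or more.

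Among the histone demethylase genes, Kdm6b encodes an H3K27 demethylase. Its promoter value in the experimental line was 0.542 on day 0 and then 0.734, 0.627, 0.721, 0.629 and 0.709 on days 5, 9, 12, 16 and 20. In the control line it ranged from 0.431 to 0.542 with a median of 0.480. The experimental libraries of days 5 to 20 were all above the control libraries, and the experimental day 0 library was level with the highest control library. Such a separation, with the experimental series higher, was seen in 3.2% of all promoters. The means were 0.684 ± 0.0518 (SD, n = 5) and 0.482 ± 0.0383 (SD, n = 6), a difference of 0.201 in beta value (limma, adjusted p = 0.0094). The difference between lines was 0.0408 on day 0, and the change since day 0, which rests on 1 library per line on that day, did not differ between lines past the threshold (limma, unadjusted p = 0.066, adjusted p = 0.817).

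The Kdm6b value rests on 6 cytosines at chr11:69421713-69421812 (mm10), 1346 to 1445 bp upstream of the outermost RefSeq start, and no cytosine within 500 bp of that start was listed in all libraries. These positions lie inside Dnah2, an axonemal dynein heavy chain gene on the minus strand (chr11:69420807-69549108), so the value describes sequence shared with that gene. Each of the 6 cytosines was higher in the experimental series by 0.129 to 0.287, and none passed the threshold alone (limma, lowest adjusted p = 0.186). The call was lost when other cytosines were used, and also when days were paired between the lines as a block (difference 0.205, limma, adjusted p = 0.106). Control day 12, the library with the fewest cytosines, listed only these 6 in the window, while the other libraries listed 10 to 17. With the 8 cytosines listed in the 11 other libraries and control day 12 left out, a choice made after the data were seen, the means were 0.651 ± 0.101 (SD, n = 5) and 0.516 ± 0.0877 (SD, n = 5), the series overlapped, and the difference of 0.134 was not called (limma, adjusted p = 0.265). With all cytosines each library listed, the difference was 0.0495 (limma, adjusted p = 0.776).

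Farther into the gene, 79 cytosines 1 to 12 kb from the start all had a mean under 0.1 (0.00783 ± 0.00320, SD, n = 5, and 0.00343 ± 0.00245, SD, n = 6), and 48 cytosines from 12 kb to the gene end averaged 0.897 and 0.895. Between these and the start, 9 cytosines 500 to 1000 bp into the gene, picked out after their values were seen and not tested, were at 0.160 on day 0 and 0.127 to 0.282 on days 5 to 20 in the experimental line and at 0.00635 to 0.0686 in the control line. The lines did not overlap there on any day, day 0 included. The RefSeq span of Kdm6b is 6692 bp longer than its span in GENCODE vM1, an older annotation, and the transcript behind the outermost start used here was not examined.

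**Figure D4:**
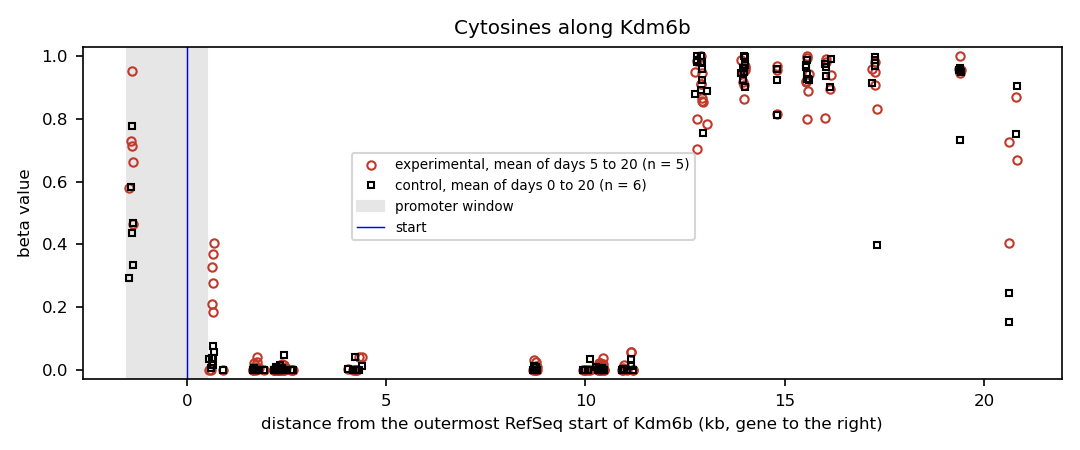
Mean beta value of each cytosine listed in all 12 libraries against its distance from the outermost RefSeq start of Kdm6b in kb, for the experimental series (days 5 to 20, n = 5, circles) and the control series (n = 6, squares), with the promoter window shaded. The 6 cytosines of the window are partly methylated, the 79 from 1 to 12 kb are near 0 in both lines, and those beyond 12 kb are mostly near 0.9.

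None of the other measured histone demethylase genes was called, and in each the libraries of the experimental and control series overlapped. Kdm2a, an H3K36 demethylase with a CXXC domain that binds unmethylated CpG, had the highest mean of all members. Its promoter ranged from 0.671 to 0.810 in the experimental series and from 0.692 to 0.814, with a median of 0.724, in the control series. These ranges overlapped almost entirely (0.740 ± 0.0565, SD, n = 5, and 0.737 ± 0.0489, SD, n = 6), and the sign of the difference turned under several of the alternatives tried. Its 22 cytosines lie at chr19:4398320-4398494, 227 to 401 bp into the gene and inside an overlapping gene on the opposite strand, 9430078G10Rik, whereas the 70 cytosines 1 to 3 kb into the gene all had a mean under 0.1. Jarid2, a JmjC protein without demethylase activity that belongs to the Polycomb complex PRC2, was at 0.247 ± 0.0113 (SD, n = 5) and 0.215 ± 0.0232 (SD, n = 6), with overlapping libraries (limma, adjusted p = 0.335). Its methylation lay in 6 of the 14 cytosines over 500 bp upstream, each with a mean above 0.5, while the other 8 had a mean under 0.1. The 14 together averaged 0.405 and 0.353, and its 9 cytosines within 500 bp of the start were at 0.000996 and 0.

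Kdm4b, an H3K9 and H3K36 demethylase, was between 0 and 0.0187 in the experimental series and between 0 and 0.103, with a median of 0.0343, in the control series. The higher control values came largely from a cytosine 429 bp upstream, which read 0.778 in control day 0 and 0 in control days 12 and 16. The difference was not called (limma, adjusted p = 0.359), and with all listed cytosines its sign turned, to 0.00341. Without control day 0 the difference was −0.0238. Kdm2b, Kdm3b, Kdm4a, Kdm4d, Kdm5a and Phf2, which act on H3K36, H3K9 or H3K4, stayed at or under 0.0768 in all 12 libraries. The H3K4 demethylase Kdm5a was measured most fully, over 46 cytosines, and its mean was 0.00586 ± 0.00336 (SD, n = 5) and 0.00436 ± 0.00849 (SD, n = 6). Kdm4a had the lowest p for the change since day 0 (limma, unadjusted p = 0.00292, adjusted p = 0.289), where the experimental line read 0.0528 on day 0 and 0 to 0.0125 afterwards, all within the range of unmethylated promoters.

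Among the hydroxylase genes, the 3 HIF prolyl hydroxylases were unmethylated. Egln1 (PHD2) was at 0.00683 ± 0.00544 (SD, n = 5) and 0.00752 ± 0.0145 (SD, n = 6) over 27 cytosines, and its highest library was at 0.0370. Egln2 (PHD1) reached 0.0769 in both lines, a value set almost wholly by a cytosine 915 bp upstream that read between 0 and 1 across libraries, and its 12 cytosines within 500 bp of the start averaged 0.00634 and 0. Egln3 (PHD3) reached 0.08 over 5 cytosines. Hif1an (FIH), the asparaginyl hydroxylase that blocks the transactivation domain of HIF, stayed at or under 0.0211. None of the 4 differed between the series past the threshold (limma, adjusted p from 0.611 to 0.895).

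The collagen hydroxylase genes that could be measured were also unmethylated. P4ha1 and P4ha2, catalytic subunits of collagen prolyl 4-hydroxylase, had means of 0.0239 and 0.0186 and of 0.0132 and 0.00446, in the order experimental and control. The difference at P4ha2, 0.00874, was among the 3 with an unadjusted p below 0.05 and was not called (limma, adjusted p = 0.238). Plod1 and Plod3, which hydroxylate collagen lysines, did not exceed 0.0149 in any library, with 16 and 41 cytosines. Ogfod1, a ribosomal protein hydroxylase, and Jmjd6, a JmjC lysyl hydroxylase, stayed at or under 0.0469.

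P4htm, a transmembrane prolyl hydroxylase of the endoplasmic reticulum, was the hydroxylase gene with the highest values. The experimental line read 0.308 on day 0 and 0.267, 0.232, 0.263, 0.289 and 0.243 on days 5 to 20, and the control line ranged from 0.111 to 0.286 with a median of 0.185. Control day 20 lay within the experimental range and the other control libraries lay below it. The means were 0.259 ± 0.0222 (SD, n = 5) and 0.182 ± 0.0632 (SD, n = 6), and the difference of 0.0770 was not called (limma, adjusted p = 0.212). It was 0.107 on day 0, before doxycycline. The cytosine with the largest increase in any member promoter was in P4htm, 263 bp upstream, at 0.702 ± 0.220 (SD, n = 5) against 0.311 ± 0.391 (SD, n = 6), and the next was in Jarid2, 1282 bp upstream, at 0.865 ± 0.135 (SD, n = 5) against 0.475 ± 0.350 (SD, n = 6). Neither passed the threshold (limma, adjusted p = 0.735 and 0.640).

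Alkbh3, an AlkB enzyme that repairs alkylated DNA and RNA, had the largest difference between the lines on day 0. The sequence around its start, chr2:94010681-94010980 (GRCm38.p6, minus strand), is shown with the 11 cytosines listed in all libraries in capitals, where a G stands for a cytosine measured on the other strand.
Alkbh3: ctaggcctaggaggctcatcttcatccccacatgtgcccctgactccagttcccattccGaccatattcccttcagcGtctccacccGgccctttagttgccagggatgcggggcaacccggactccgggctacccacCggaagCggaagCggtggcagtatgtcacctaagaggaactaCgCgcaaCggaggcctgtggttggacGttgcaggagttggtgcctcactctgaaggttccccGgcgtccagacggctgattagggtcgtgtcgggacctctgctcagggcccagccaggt
In this window the means were 0.0220 and 0.102, in the order experimental and control. The promoter as a whole, with 13 cytosines, was at 0.387 in the control line on day 0 and at 0.236, 0.183, 0.0780, 0.104 and 0.0699 on days 5, 9, 12, 16 and 20. The experimental line was at 0.0996 on day 0 and between 0.0308 and 0.114 afterwards. The control libraries of days 0, 5 and 9 lay above all experimental libraries, and the later ones lay among them. The series difference, experimental minus control, was −0.0999 and was not called (limma, adjusted p = 0.306). Without control day 0 it was −0.0577 (limma, adjusted p = 0.406). The slope in the control line was −0.146 ± 0.0341 (SE) M-value units per day, with an unadjusted p of 0.00182 and an adjusted p of 0.769 in limma, and among all promoters none was called for a slope in the control line and 6.38% had an unadjusted p below 0.05.

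Alkbh2, which repairs alkylated bases in DNA, ranged from 0.376 to 0.430 in the experimental series and from 0.328 to 0.407 in the control series, with overlapping libraries and a difference of 0.0413 (limma, adjusted p = 0.367), which was 0.0097 with all listed cytosines (limma, adjusted p = 0.882). Its window overlaps Ung, the uracil DNA glycosylase gene (chr5:114130366-114139321). Methylation was in 3 cytosines 1000 to 1038 bp upstream (0.913 and 0.823), and the other 4 were near 0. In the RefSeq promoter table the outermost Alkbh2 start lies 3015 bp farther into the gene, and the window placed there, with 6 cytosines, read 0.00553 and 0.00252. Fto and Alkbh5, the RNA m6A demethylases, and Alkbh1 stayed at or under 0.0277 in every library. Alkbh5 had the most cytosines of all members, 56, and stood at 0.0142 ± 0.00352 (SD, n = 5) and 0.0163 ± 0.00804 (SD, n = 6).

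Phyh, the peroxisomal phytanoyl-CoA hydroxylase, had the largest decrease. The experimental line was at 0.244 on day 0 and at 0.08, 0.175, 0.283, 0.0810 and 0.0389 on days 5 to 20, and the control line ranged from 0.0889 to 0.503 with a median of 0.261. The lines overlapped, and both moved by more between days than the 0.155 by which their means differed (0.131 ± 0.0982, SD, n = 5, and 0.286 ± 0.178, SD, n = 6; limma, adjusted p = 0.346). The 3 cytosines within 500 bp of the start averaged 0.0682 and 0.377, in the order experimental and control, and the 2 farther upstream 0.226 and 0.150. With a window of 500 bp on either side of the start the difference was therefore −0.309, and it was not called (limma, unadjusted p = 0.0055, adjusted p = 0.115). The 2 cytosines with the largest decreases in any member promoter were here, 236 and 239 bp into the gene, with differences of −0.464 and −0.409 (limma, adjusted p = 0.437 and 0.639). At the former the control line read 0.8 on day 0, 0.0435 on day 5, 0.85 on day 9 and 0 on day 16. Kdm8, a JmjC protein hydroxylase, and Asph, which hydroxylates aspartyl and asparaginyl residues, did not exceed 0.0627.

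**Figure D5:**
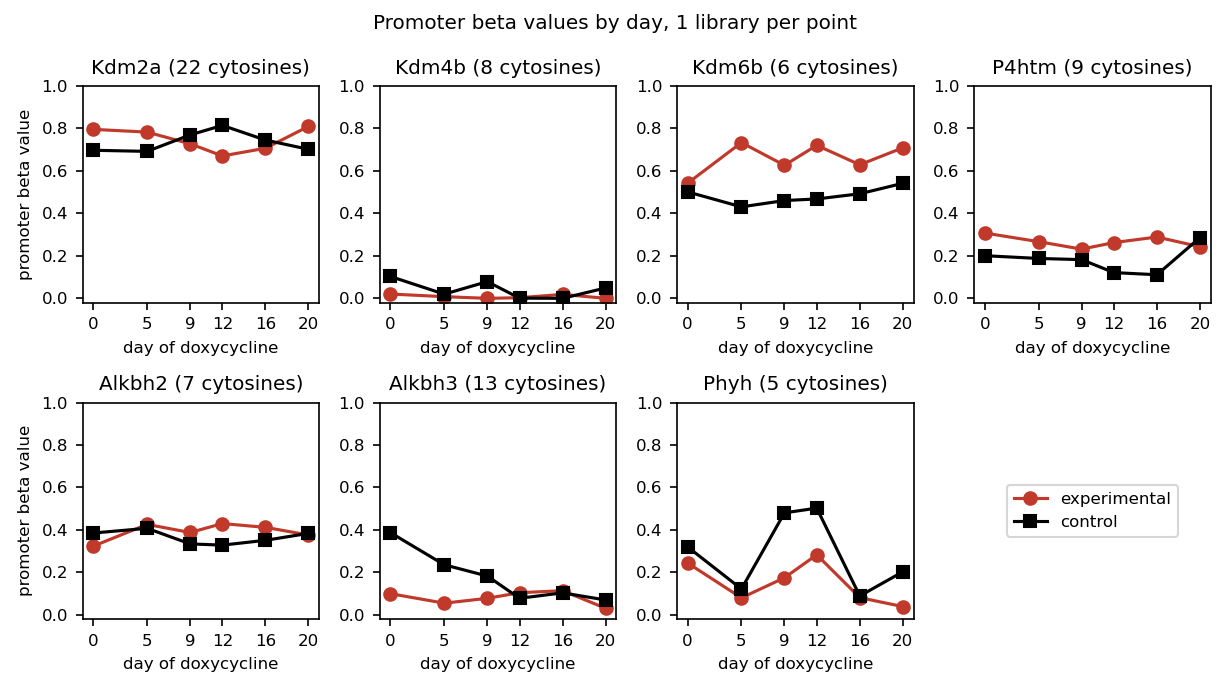
Promoter beta values (vertical axis, 0 to 1) by day of doxycycline (horizontal axis) for the 7 members chosen by level, range or difference, with 1 library per point (experimental line, red circles, and control line, black squares). Kdm6b is the panel in which all experimental libraries from day 5 on lie above all control libraries, while Alkbh3 and Phyh vary more within the control line than their series means differ.

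No member was called in the comparisons that use time. In simulated data, changes of 2 and 4 M-value units were recovered in 9.5% and 49.5% of promoters for the change since day 0. For the slope, the same changes reached by day 20 were recovered in 5.5% and 28.5%. The series comparison recovered 73.5% and 92.5%. Counts of 0 in these comparisons therefore do not show that methylation stayed the same over time. For the change since day 0, 0.198% of all promoters were called and 0 of 29 members (limma, lowest adjusted p = 0.289), with 1 member (Kdm4a) and 6.5% of all promoters at an unadjusted p below 0.05. For the difference in slope over days, 0 promoters of any kind were called, with 1 member (Alkbh3) and 5.27% of all promoters at an unadjusted p below 0.05. Within the experimental line, 1 member (Kdm2b, limma, unadjusted p = 0.0401) had a slope at that level, against 5.51% of all promoters.

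At the level of single cytosines, none of the 525 in member promoters was called (limma, lowest adjusted p = 0.155, an Alkbh3 cytosine 31 bp into the gene), where 0.404% of all 606488 cytosines were. At an unadjusted p below 0.05 there were 15 (2.86%), 10 higher and 5 lower, against 9.63% of all cytosines. These shares are not like for like, because a cytosine of constant value cannot give a low p. Of the 525, 248 were at 0 in all 12 libraries, while 98137 of all 606488 cytosines were constant. In simulated data, changes of 2 and 4 M-value units at single cytosines were recovered in 19% and 27.5%, again on a scale without bounds. The gene bodies, from 500 bp past the start to the gene end, could be measured in 30 members. Of these 0 were called, against 4.63% of all 16052 gene bodies, and 6 (20%) had an unadjusted p below 0.05, 3 higher and 3 lower, against 20.4%. By sign alone, 25 of the 30 bodies (83.3%) were higher in the experimental series, against 59.4% of all gene bodies, and the median difference was 0.0098 in members and 0.00705 in all. The lowest adjusted p was that of Fto, whose body, with 102 cytosines, was at 0.882 ± 0.0118 (SD, n = 5) and 0.849 ± 0.0105 (SD, n = 6) (limma, adjusted p = 0.0541), and which already differed by 0.0551 on day 0. Bodies differed widely among members in both lines, from 0.00738 and 0.00347 in Alkbh5 to 0.894 and 0.977 in Alkbh1.

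Of the 8 members that could not be tested, Kdm4c, P4ha3, Alkbh7, Alkbh8 and Bbox1 had no promoter cytosine listed in all libraries. Kdm5b had 1, and the H3K9 demethylase Kdm3a had 2, all at 0 in all 12 libraries. Plod2, the lysyl hydroxylase of collagen telopeptides, had 2, both over 1000 bp upstream, with means of 0.855 ± 0.151 (SD, n = 5) and 0.994 ± 0.0151 (SD, n = 6) at the farther and 0.560 ± 0.330 (SD, n = 5) and 0.638 ± 0.231 (SD, n = 6) at the nearer, neither past the threshold (limma, adjusted p = 0.373 and 0.805).

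In the rest of the class, 15 of 23 further 2-oxoglutarate dioxygenase genes could be measured, the TET genes included, and 0 were called. This list and the HIF pathway and collagen lists below were chosen with earlier results of these data known. At an unadjusted p below 0.05, Tet3, which oxidises 5-methylcytosine, was higher (0.131 ± 0.0542, SD, n = 5, and 0.0724 ± 0.00936, SD, n = 6; limma, adjusted p = 0.152), and Tet1 (0.0705 ± 0.0521, SD, n = 5, and 0.147 ± 0.0601, SD, n = 6; limma, adjusted p = 0.181) and Ogfod2 (0.00396 ± 0.00498, SD, n = 5, and 0.116 ± 0.119, SD, n = 6; limma, adjusted p = 0.212) were lower. On day 0, before doxycycline and with 1 library per line, the lines already differed by 0.0439 at Tet3, −0.122 at Tet1 and −0.2 at Ogfod2. Of the HIF pathway genes 5 of 10 could be measured and 0 were called, with Vhl, the ubiquitin ligase subunit that recognises hydroxylated HIF, at 0.00859 ± 0.00436 (SD, n = 5) and 0.00177 ± 0.00309 (SD, n = 6) (limma, adjusted p = 0.131). Of the collagen and collagen modification genes 5 of 12 could be measured and 0 were called. Before adjustment, a p below 0.05 was found for 1 HIF pathway gene, Vhl, and for 0 of the collagen genes. The medians of the differences were −0.000959, 0.0057 and 0.00267 in the 3 lists, beside 0.00251 over all promoters.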

How the data were processed

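RRBS libraries were aligned by the authors to mm10 with Bismark, whose version is not given in the sources used here. For each CpG cytosine the authors deposited the percent of reads called methylated, without counts, and these were divided by 100. Cytosines listed in all 12 libraries (606488, autosomal, both strands kept, constant values kept) were averaged per promoter with a minimum of 3. Gene bounds were RefSeq GRCm38.p6. Strand came from the RefSeq promoter table, or by symbol from GENCODE vM1, with 15489 of 15532 comparable genes on the same strand. Groups were fitted in R 4.3.3 with limma 3.58.1 on M-values (offset 0.01), with Benjamini-Hochberg adjustment over all features and a threshold of 0.05, and this step was checked on simulated data. No coverage filter or interval was possible. The members and lists were chosen with earlier results of these data known. Named members were those called, and the 3 highest by increase, decrease, mean and range. Cytosines named were, in member promoters, the 2 that increased and the 2 that decreased most. Promoter sequences of Kdm6b, Kdm2a, Kdm3b, Kdm4b, Kdm5a, Plod2 and Asph were not used here. Alternatives were other offsets, beta values, a day block, other cytosine sets, windows and starts, and libraries left out.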

Additional observations from a re-analysis of the deposited data

How the results depend on the processing

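Depth is unknown, and each comparison has 1 line per genotype. Kdm6b was called with each library left out in turn (difference 0.189 to 0.216, limma adjusted p from 0.0117 to 0.0284), and with day 0 put with the experimental series (0.178, adjusted p = 0.0203). Over all promoters, same-day deviations of the lines correlated between −0.038 and 0.0198. In 0 of 5 days did a library correlate best with its own day. Of these promoters 66.7% had a mean under 0.1, so the correlations cannot decide whether days pair at methylated promoters. With day as a replicate block 8 promoters were called, none of them a member, and Kdm6b read 0.205 (limma, adjusted p = 0.106). Kdm6b was also not called with all listed cytosines (0.0495, adjusted p = 0.776) or with the cytosines of the other 11 libraries (0.134, adjusted p = 0.265). With 500 bp on either side of the start, or starts from the promoter table, Kdm6b had too few cytosines or no start, and 0 members were called.

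Promoters called between series numbered 338, and 181 with an offset of 0.001, 214 with all listed cytosines, 211 with the 500 bp window and 165 to 360 with a library left out (165 without experimental day 5, 173 without experimental day 12 and 215 without control day 5). For the change since day 0 the 26 called became 50 and 47 with offsets of 0.05 and 0.001, 94 on beta values, 0 with the block, 1 without constant cytosines, 16 with at least 5 cytosines, 7 with all listed cytosines and 16 to 39 with a library left out (16 without control day 16 and 17 without control day 9). Gene bodies called, 743, became 47 with the block, 203 with all listed cytosines and 365 to 733 with a library left out (365, 414 and 485 without experimental days 12, 5 and 16, and 482, 459 and 441 without control days 5, 9 and 20). Cytosines called, 2450, became 1618 with an offset of 0.001, 4178 on beta values, 58 with the block and 1771 to 3097 with a library left out. The cause of these shifts was not tested. The Kdm2a difference of 0.00281, never called, reversed to −0.00509 with the block, −0.00320 with neighbouring cytosines averaged, −0.00298 with all listed cytosines and −0.00801 and −0.0148 without experimental days 5 and 20 and −0.00509, −0.00612 and −0.00418 without control days 0, 5 and 20, and Kdm4b reversed to 0.00341 with all listed cytosines. Window changes were not run for gene bodies or single cytosines, and a left-out day 0 library leaves no value for the change since day 0.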
